A study of Homo sapiens with 66 samples.

Results

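Haematopoietic growth factor receptors carry the survival and differentiation signals that leukaemic blasts inherit from normal progenitors. Described here are 7 of them, chosen by gene symbol among the 57992 gene identifiers counted in the series: the receptor tyrosine kinases FLT3, KIT and CSF1R, the cytokine receptors CSF3R, CSF2RB and IL6R, and the interferon receptor chain IFNGR1. RNA was sequenced from 11 cell lines of acute myeloid leukaemia (AML), whose names the labels write without hyphens: THP-1, MV-4-11, F-36P, MOLM-13, HL-60, OCI-AML3, KASUMI-1, NOMO-1, OCI-AML2, MONO-MAC-6 and NB-4. Each cell line was left in medium or exposed for 24 hours to etoposide, a topoisomerase II poison that causes DNA double-strand breaks, at the concentration that lowered its own viability to the IC50 level. There were 3 libraries per cell line and condition, 66 in all, each from 3 pooled wells, so every cell line has its own untreated controls and its own dose. The study's IC50 was highest in F-36P, above the concentrations tested, and next highest in KASUMI-1. Dose and cell line cannot be told apart. According to the methods, F-36P was the only cell line grown with added granulocyte-macrophage colony-stimulating factor (GM-CSF), and the labels give no genotype for any cell line. The study discarded the etoposide-treated OCI-AML2 libraries at read quality control, so OCI-AML2 after etoposide is given apart and changes are counted over the other 10 cell lines.

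The 3 receptor tyrosine kinases belong to a class that dimerizes on binding a ligand (FLT3 ligand for FLT3, stem cell factor for KIT, CSF1 or IL34 for CSF1R) and signals through RAS and PI3-kinase. CSF3R (granulocyte colony-stimulating factor), CSF2RB (the shared chain for GM-CSF, interleukin 3 and interleukin 5) and IL6R (interleukin 6, together with IL6ST) have no kinase of their own and work through Janus kinases and STAT proteins, as does IFNGR1, which binds interferon gamma and pairs with IFNGR2. In normal blood formation FLT3 and KIT mark early progenitors, CSF1R marks monocytes and CSF3R marks granulocytes, and FLT3 is among the most frequently mutated genes in AML.

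Reads on genes ranged from 17997404 to 24101670 per library. Of the leukocyte and myeloid markers, PTPRC (CD45) lay between 32.5 and 539 CPM (reads per megaread of the scaled library) in the 11 untreated cell lines. CD33 lay between 66.5 and 147 CPM and SPI1 between 107 and 203. MPO (0.977 to 27200 CPM) and LYZ (2.65 to 5010 CPM) varied far more, and MPO was under 1 CPM in 1 cell line. The erythroid gene GATA1 was highest in F-36P (253 CPM). Among 8 markers of other cell types, PECAM1, which leukocytes also carry, had a median of 82.4 CPM and was under 1 CPM in 1 cell line only. CDH5 was under 1 CPM in all 11 cell lines, and CD3E, MS4A1 and COL1A1 were under 1 CPM in 10, while CD3D reached 156 CPM in NOMO-1 and EPCAM 81.9 CPM in KASUMI-1. Replicates correlated at 0.978 or above, with the lowest value between untreated F-36P libraries.

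Of the 7 receptors, FLT3, KIT, CSF1R and IL6R had both the widest spread between untreated cell lines and the most etoposide-evoked calls, and the 200 bases before their start sites are shown for that reason. RefSeq promoters on GRCh38.p14 matched 6 of the 7 receptors by symbol, with 9 start sites between them, and CSF2RB had no entry. Motifs were searched on both strands, and capitals mark matches, or the reverse complement, of GAGGAA (the core of the ETS family with a flank that PU.1 prefers) and TGNGGT (the RUNX core), which do not overlap each other in these windows.

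CSF1R, downstream start site, chr5:150086555-150086754, minus strand: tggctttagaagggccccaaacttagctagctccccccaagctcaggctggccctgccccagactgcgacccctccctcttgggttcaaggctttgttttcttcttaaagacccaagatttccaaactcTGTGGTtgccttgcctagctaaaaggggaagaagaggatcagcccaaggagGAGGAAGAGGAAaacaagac

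FLT3, chr13:28100577-28100776, minus strand: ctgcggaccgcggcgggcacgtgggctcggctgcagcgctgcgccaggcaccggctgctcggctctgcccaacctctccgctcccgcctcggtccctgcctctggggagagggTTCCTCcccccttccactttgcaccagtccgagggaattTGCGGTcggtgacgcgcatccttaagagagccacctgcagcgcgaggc

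IL6R, chr1:154405143-154405342, plus strand: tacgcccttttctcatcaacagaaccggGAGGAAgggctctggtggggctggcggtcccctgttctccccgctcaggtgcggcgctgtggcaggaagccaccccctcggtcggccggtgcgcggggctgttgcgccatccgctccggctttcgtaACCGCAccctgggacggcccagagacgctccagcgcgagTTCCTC

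KIT, chr4:54657757-54657956, plus strand: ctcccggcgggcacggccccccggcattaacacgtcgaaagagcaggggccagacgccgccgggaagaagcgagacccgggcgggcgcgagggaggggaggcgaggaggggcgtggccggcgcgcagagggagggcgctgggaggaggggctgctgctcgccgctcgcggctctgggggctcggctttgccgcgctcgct

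The CSF1R window held 2 adjoining GAGGAA matches, at 20 and 14 bases before the start site, and a TGTGGT match 71 bases before it. FLT3 had a GAGGAA match on the opposite strand and a TGNGGT match, IL6R had 2 and 1, and the KIT window had neither motif. Over the 9 receptor windows, GAGGAA was found in 5 and TGNGGT in 4, and over 35116 promoter windows of the same length they were found in 19.3% and 31.4%. The guanine and cytosine content was 53.0% for this CSF1R window, 69.0% for IL6R, 70.5% for FLT3 and 77.0% for KIT. Of the other motifs searched, TTNNGNAA (C/EBP) was found in 3 of the 9 receptor windows and in 26.8% of all windows, and TGANTCA (AP-1) in 1 and in 5.38%. The STAT motif TTCNNNGAA was found in none of the 9 and in 5.09% of all windows. Windows with AGATAA, bound by the factor family of GATA1, made up 7.16% of all and none of the 9. A match describes these letters only, and factor binding was not measured.

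FLT3 (ENSG00000122025.14, chr13:28003274-28100592, minus strand) spanned the widest range of levels. Levels of untreated cells are CPM with TMM scaling over the 33 untreated libraries, as mean ± SD of 3 libraries. The 3 MONO-MAC-6 libraries had 3148, 2785 and 2885 CPM, a mean of 2939 ± 188. MV-4-11 (618 ± 8.26) and MOLM-13 (599 ± 15.1) followed at levels that overlapped each other, 6.59-fold above the next cell line. OCI-AML2, THP-1, NOMO-1, OCI-AML3 and HL-60 lay between 90.8 and 38.3 CPM, KASUMI-1 at 7.81 ± 0.81 and NB-4 at 5.51 ± 1.36. F-36P had 0 reads in all 3 libraries, which allows up to 0.0520 CPM before scaling (3 reads over the group, counting error only). Apart from MV-4-11 and MOLM-13, every pair of neighbours in this order had libraries that did not overlap.

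KIT (ENSG00000157404.15, chr4:54657267-54740783, plus strand) was abundant in a single cell line. KASUMI-1 libraries had 1049, 976 and 869 CPM, a mean of 965 ± 90.8, which was 30.8-fold above NOMO-1 at 31.3 ± 3.04. THP-1 had 8.07 ± 0.82, OCI-AML2 2.87 ± 0.38, F-36P 1.90 ± 0.37 and MOLM-13 1.45 ± 0.45, and the F-36P and MOLM-13 libraries overlapped. The other 5 cell lines had between 0 and 13 reads in their 3 libraries together and could not be placed in order, with 0 reads in MONO-MAC-6, where FLT3 was highest.

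CSF1R (ENSG00000182578.13, chr5:150053291-150113372, minus strand), the monocyte-lineage receptor, ranged from 181 ± 1.69 CPM in THP-1 to 0.132 in HL-60, which had 8 reads. OCI-AML2 had 88.5 ± 7.06, MOLM-13 52.4 ± 4.69 and MV-4-11 46.3 ± 2.03, the last pair with overlapping libraries. KASUMI-1 (20.03 ± 1.90) and OCI-AML3 (17.4 ± 2.26) overlapped as well, and NOMO-1, NB-4, MONO-MAC-6 and F-36P followed at 12.02, 7.13, 4.56 and 0.477 CPM, each apart from the next. MONO-MAC-6, the cell line with the most FLT3, was thus among the 3 lowest for CSF1R.

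IL6R (ENSG00000160712.12, chr1:154405193-154469450, plus strand), the ligand-binding chain for interleukin 6, spanned 162-fold. OCI-AML2 (551 ± 27.3) and THP-1 (522 ± 16.8) overlapped at the top, OCI-AML3 had 365 ± 20.3, and KASUMI-1 (6.01 ± 0.08) and F-36P (3.40 ± 0.63) were lowest, with an 11.1-fold step between HL-60 (66.7 ± 8.52) and KASUMI-1. CSF2RB (ENSG00000100368.13, chr22:36913628-36940439, plus strand) was highest in F-36P, the cell line grown in GM-CSF, at 230, 203 and 209 CPM (mean 214 ± 14.2). That was 2.46-fold above OCI-AML2, and KASUMI-1 (7.74 ± 0.39) and NB-4 (7.42 ± 0.36) overlapped at the bottom.

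CSF3R (ENSG00000119535.17, chr1:36466043-36483278, minus strand) was present in every cell line, from 783 ± 16.0 CPM in KASUMI-1 to 42.6 ± 2.51 in F-36P. NOMO-1 (290 ± 4.46) and OCI-AML2 (286 ± 11.2) overlapped behind KASUMI-1. In the middle of the order HL-60 (124 ± 19.5) overlapped both OCI-AML3 (152 ± 11.2) and THP-1 (109 ± 1.07), which did not overlap each other. IFNGR1 (ENSG00000027697.13, chr6:137197483-137219449, minus strand) differed least, by 3.99-fold between THP-1 (153 ± 12.01) and NB-4 (38.4 ± 4.76). THP-1 and MONO-MAC-6 (147 ± 9.14) overlapped at the top of its order, and KASUMI-1, OCI-AML3 and NB-4 could not be separated at the bottom.

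**Figure D1:**
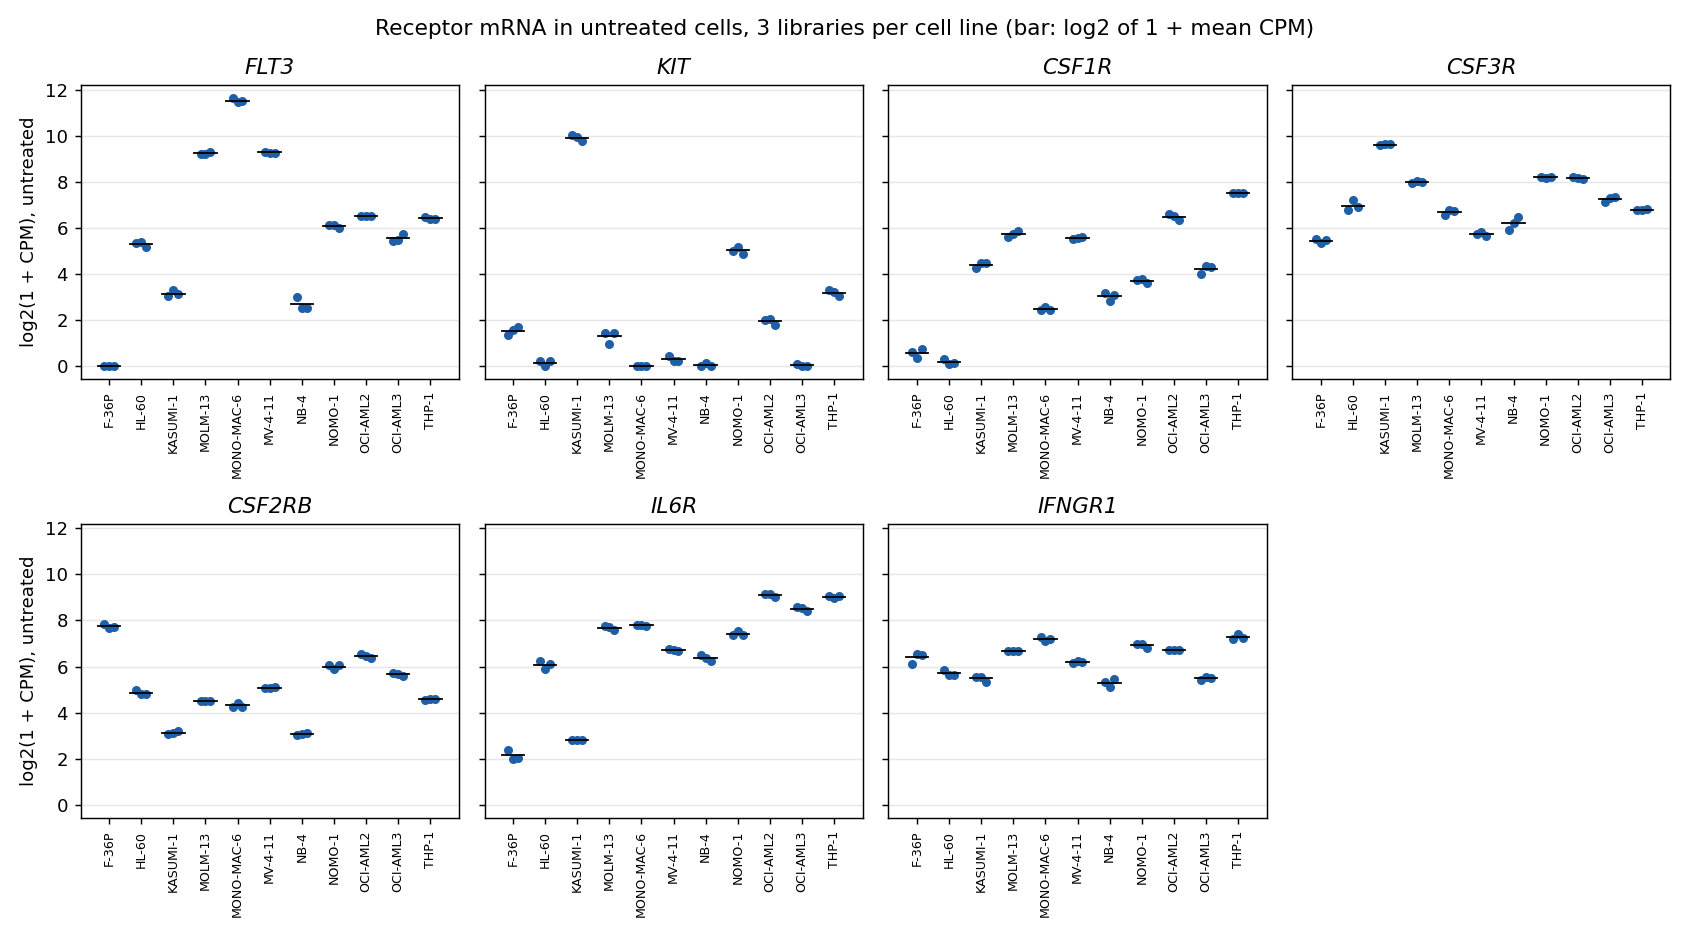
Levels of the 7 receptors in untreated cells: log2(1 + CPM) on the vertical axis and the 11 cell lines on the horizontal axis, with a point for each of the 3 libraries and a bar at the mean. FLT3 is highest in MONO-MAC-6 (2939 CPM) and without reads in F-36P, KIT stands out in KASUMI-1 (965 CPM), and IFNGR1 stays between 38.4 and 153 CPM.

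The standard deviation of log2(1 + CPM) over the 11 cell lines was 3.28 for FLT3 and 3.03 for KIT, above 99.7% and 99.4% of the 13667 genes that averaged 1 CPM or more. CSF1R (2.32) and IL6R (2.32) lay above 96.9% and 96.8%, CSF2RB (1.39) above 83.1%, CSF3R (1.23) above 79.3% and IFNGR1 (0.72) above 61.9%. Of the 70 neighbouring pairs in the 7 orders, 52 had libraries that did not overlap and 18 had libraries that did, where over all genes of that level 64.0% overlapped.

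For the 5 receptors with reads in every cell line, the log2 level in each cell line was also tested against the mean log2 level of the other 10. The test was the quasi-likelihood test of edgeR, with an FDR below 0.05 over all genes and a fold above 2. A cell line near 0 pulls a mean of log2 levels down. IL6R in MOLM-13 (204 CPM) was thus called higher although the other cell lines averaged 209 CPM. Of 55 such comparisons, 17 were higher and 11 lower, where 17.5% and 8.18% of all tests were called. CSF1R was higher in THP-1 (log2 difference 4.41 ± 0.06, SE), OCI-AML2, MOLM-13 and MV-4-11, and lower in HL-60 (-6.97 ± 0.21), F-36P (-4.98 ± 0.24) and MONO-MAC-6 (-1.43 ± 0.13). The SE is too small where reads are few, as in HL-60 (8 reads) and F-36P (27 reads). IL6R was higher in OCI-AML2 (2.72 ± 0.05), THP-1, OCI-AML3, MONO-MAC-6 and MOLM-13 and lower in F-36P (-5.36 ± 0.10) and KASUMI-1 (-4.45 ± 0.10), and the calls in MONO-MAC-6 and MOLM-13 ended without F-36P (0.73 and 0.61). CSF3R was higher in KASUMI-1 (2.68 ± 0.06), NOMO-1 and OCI-AML2 and lower in F-36P, MV-4-11 and NB-4. Here too NOMO-1 (0.92) and OCI-AML2 (0.90) were under the fold limit without F-36P, and NB-4 (-0.96) without replicate 1. CSF2RB was higher in F-36P (3.05 ± 0.04), OCI-AML2 and NOMO-1 and lower in NB-4 and KASUMI-1. IFNGR1 was higher in THP-1 (1.07 ± 0.06) and MONO-MAC-6 (1.01 ± 0.06) and lower in NB-4 (-1.12 ± 0.08), with the MONO-MAC-6 value just under the fold limit without replicate 1 (0.95), without replicate 3 (0.997) and without the low-count filter (0.98).

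Per kilobase of the canonical transcript, which allows levels of different genes to be set beside each other, the leading receptor before treatment fell into 4 sets. FLT3 led in MONO-MAC-6 (768 CPM per kb), MV-4-11 (162) and MOLM-13 (156.5). CSF3R led in KASUMI-1 (260), NOMO-1 (96.3), HL-60 (41.2) and NB-4 (24.6), with KIT next in KASUMI-1 at 187 CPM per kb and IFNGR1 overlapping CSF3R in NB-4. IL6R led in OCI-AML2 (95.7), THP-1 (90.5) and OCI-AML3 (63.3), but in OCI-AML2 CSF3R stood at 94.9 with overlapping libraries. CSF2RB (44.1) and IFNGR1 (40.1 CPM per kb) overlapped at the top in F-36P. IFNGR1 ranked in place 2 or 3 in all 11 cell lines, and KIT was last in 8 of them.

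After etoposide, 13 of the 64 tested pairs of receptor and cell line rose and 6 fell. These shares of 20.3% and 9.38% stand beside 11.1% and 3.96% of the 143149 pairs of gene and cell line tested in all. A pair was called when the quasi-likelihood test of edgeR gave an FDR below 0.05 over the genes of that cell line and the fold exceeded 2. Of the 70 possible pairs, 6 did not pass the low-count filter: KIT in HL-60, MONO-MAC-6, NB-4 and OCI-AML3, CSF1R in HL-60 and FLT3 in F-36P. Another 2, CSF1R in F-36P and KIT in MV-4-11, passed only through their etoposide libraries, and both are among the 13. The median log2 fold change of the 64 pairs was 0.28, beside 0.01 over all pairs, and with the FDR alone 34 rose and 15 fell, where 27.7% and 24.4% of all pairs did. Libraries of both conditions did not overlap in 51 of the 64 pairs (59.8% of all pairs). Without F-36P, where 24.3% of tested genes rose, 9 of 58 pairs rose and 6 fell (9.41% and 3.62% of all pairs in the other 9 cell lines). In bulk libraries, fewer cells with a transcript and less of it per cell cannot be told apart.

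**Figure D2:**
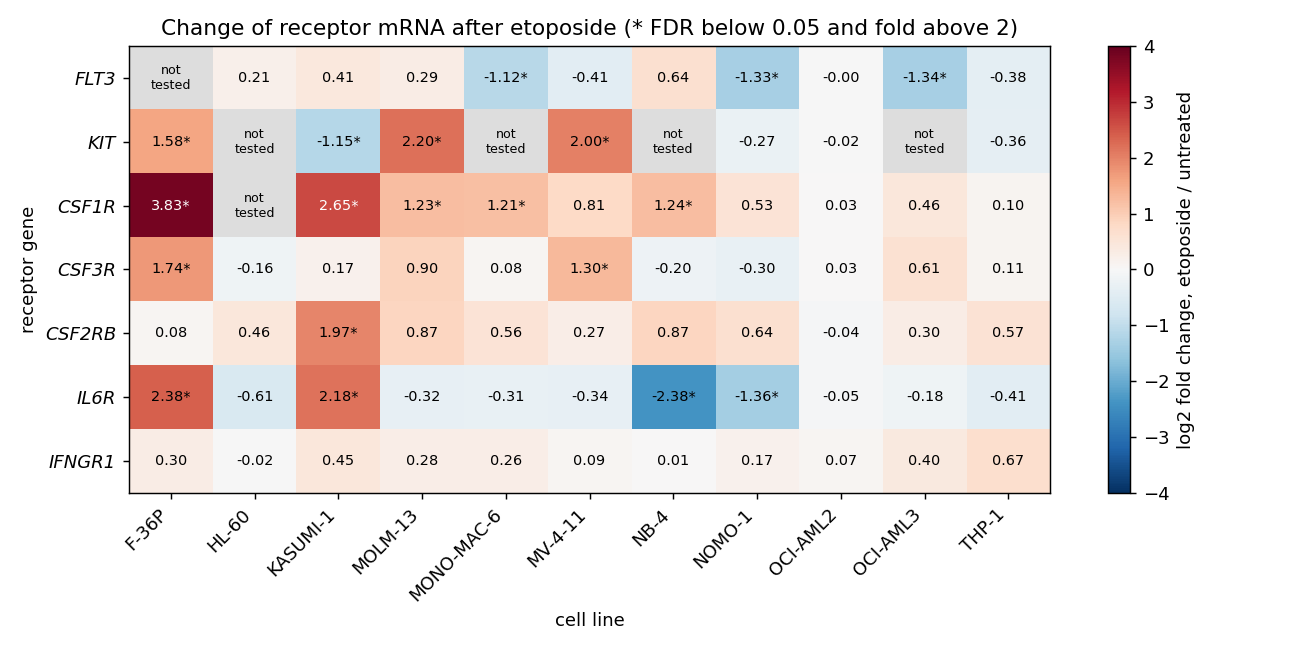
Log2 fold change (etoposide over untreated, colour scale) of the 7 receptors in rows and the 11 cell lines in columns, with an asterisk on pairs with an FDR below 0.05 and a fold above 2 and grey for pairs under the low-count filter. CSF1R is positive in all 9 tested cell lines outside OCI-AML2, IL6R and KIT go both ways, and OCI-AML2, whose treated libraries the study discarded, lies between -0.05 and 0.07.

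CSF1R rose in 5 of 9 tested cell lines and fell in none. The levels before and after treatment are CPM scaled within the cell line. In F-36P it went from 0.506, 0.289 and 0.722 CPM (27 reads in all) to 7.30, 7.25 and 7.38, a log2 fold change of 3.83 ± 0.25 (SE, adjusted p = 2.53e-06). In KASUMI-1 it went from 17.9, 21.1 and 21.0 to 124, 125 and 127 CPM, 6.27-fold (2.65 ± 0.09, adjusted p = 1.30e-07), which placed it above IFNGR1 and behind CSF3R and KIT per kilobase there. The etoposide libraries lay above all untreated ones in both cell lines.

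The 3 smaller increases of CSF1R were of like size. MOLM-13 went from 50.3 ± 4.49 to 118 ± 17.8 CPM (1.23 ± 0.11), MONO-MAC-6 from 4.74 ± 0.25 to 10.98 ± 1.15 (1.21 ± 0.11) and NB-4 from 7.50 ± 1.04 to 17.7 ± 1.74 (1.24 ± 0.14). MV-4-11 (0.81 ± 0.06), NOMO-1 (0.53 ± 0.15) and OCI-AML3 (0.46 ± 0.15) passed the FDR but not the fold limit. In THP-1, the cell line with the highest untreated level, the change was 0.10 ± 0.11 (adjusted p = 0.539), with 188, 186 and 183 CPM before and 190, 216 and 192 after. HL-60 was not tested, with 8 reads before and 22 after.

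The differences between cell lines were tested as well, as the change in a cell line minus the mean change in the other cell lines, in a joint fit of the 60 libraries. For CSF1R the change was larger than elsewhere in F-36P (by 2.79 ± 0.28) and KASUMI-1 (by 1.48 ± 0.16) and smaller in THP-1 (-1.36 ± 0.14) and OCI-AML3 (-1.02 ± 0.15). These means include HL-60, whose CSF1R was under the low-count filter in its own fit and had a change of 1.37 in the joint fit. The OCI-AML3 call ended without F-36P (-0.73) and without replicate 2 (-0.78). Over CSF1R, CSF3R, CSF2RB, IL6R and IFNGR1, 6 of 50 such differences were called higher and 4 lower, beside 2.47% and 3.15% of all genes.

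FLT3 fell in MONO-MAC-6, NOMO-1 and OCI-AML3 and was called higher in no cell line. In MONO-MAC-6, where it was most abundant, it went from 3271, 2898 and 2999 CPM to 1456, 1341 and 1417, 2.18-fold lower (-1.12 ± 0.05, adjusted p = 5.98e-09), and still led the 7 receptors per kilobase at 367 CPM per kb. In NOMO-1 it went from 75.8, 77.2 and 69.9 to 30.6, 25.1 and 33.1 CPM (-1.33 ± 0.11, adjusted p = 1.72e-06). In OCI-AML3 it went from 42.8, 42.3 and 53.3 to 21.4, 18.3 and 15.1 CPM (-1.34 ± 0.14, adjusted p = 0.000204). No etoposide library reached an untreated one in these 3 cell lines.

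The other cell lines with high FLT3 did not move together. MV-4-11 had 661 ± 5.81 CPM before and 496 ± 42.7 after (-0.41 ± 0.06), whereas MOLM-13 had 575 ± 14.2 before and 702 ± 76.6 after (0.29 ± 0.08). Both passed the FDR without reaching a 2-fold change, as did THP-1 (-0.38 ± 0.12), KASUMI-1 (0.41 ± 0.12) and NB-4 (0.64 ± 0.18). In HL-60 the change was 0.21 ± 0.11 (adjusted p = 0.166), with overlapping libraries. F-36P, without a read before, had 30 reads after etoposide (0.377, 0.403 and 0.675 CPM) and was not tested. Against the mean of the other 8 tested cell lines, the change of FLT3 was larger in NB-4 (1.12 ± 0.15) and smaller in NOMO-1 (-1.18 ± 0.12) and OCI-AML3 (-1.18 ± 0.13, or -0.92 without replicate 3, under the fold limit), where 2.28% and 2.74% of all differences in that fit were called.

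KIT fell where it was abundant and rose in 3 cell lines where it was scarce. In KASUMI-1 it went from 1050, 979 and 860 CPM to 477, 384 and 437, 2.23-fold lower (-1.15 ± 0.11, adjusted p = 1.32e-05), a call that rests on the scaling, since library size alone gave -0.98. In MOLM-13 it went from 1.62, 0.889 and 1.66 to 8.01, 6.47 and 4.81 CPM (2.20 ± 0.26, adjusted p = 6.26e-05) and in F-36P from 1.52, 2.08 and 2.44 to 6.83, 5.54 and 5.79 CPM (1.58 ± 0.21, adjusted p = 0.000104).

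MV-4-11 had 13 reads of KIT before and 70 after, or 0.231 ± 0.118 and 0.951 ± 0.154 CPM (2.003 ± 0.40, adjusted p = 0.000171). Even after these increases KIT stayed at or under 8.01 CPM in every library of the 3 cell lines, while KASUMI-1 kept 433 ± 46.8 CPM. NOMO-1 (-0.27 ± 0.12, adjusted p = 0.0807) and THP-1 (-0.36 ± 0.17, adjusted p = 0.119) had overlapping libraries. HL-60 had 6 reads before and 19 after, and NB-4 2 and 10, a ratio of 4.82 with a 95% counting interval (exact Clopper-Pearson) of 1.03 to 45.2.

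Among the 6 tested cell lines, the change of KIT was smaller than the mean of the other 5 in KASUMI-1 (-2.18 ± 0.17), NOMO-1 (-1.20 ± 0.18) and THP-1 (-1.19 ± 0.20). It was larger in MOLM-13 (1.82 ± 0.25), MV-4-11 (1.60 ± 0.43) and F-36P (1.14 ± 0.24), where 3.89% of all differences in that fit were higher and 5.22% lower. The MV-4-11 call was lost without replicate 2 (adjusted p = 0.112) and without replicate 3 (adjusted p = 0.117), and the F-36P value was 0.77 without replicate 1. KIT in MV-4-11 had passed the low-count filter only through its etoposide libraries, and it enters the mean that the others are set against. Without MV-4-11, a choice made after seeing the data, MOLM-13 (2.23), F-36P (1.52) and KASUMI-1 (-1.94) were still called, while NOMO-1 (-0.92) and THP-1 (-0.90) were under the fold limit.

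**Figure D3:**
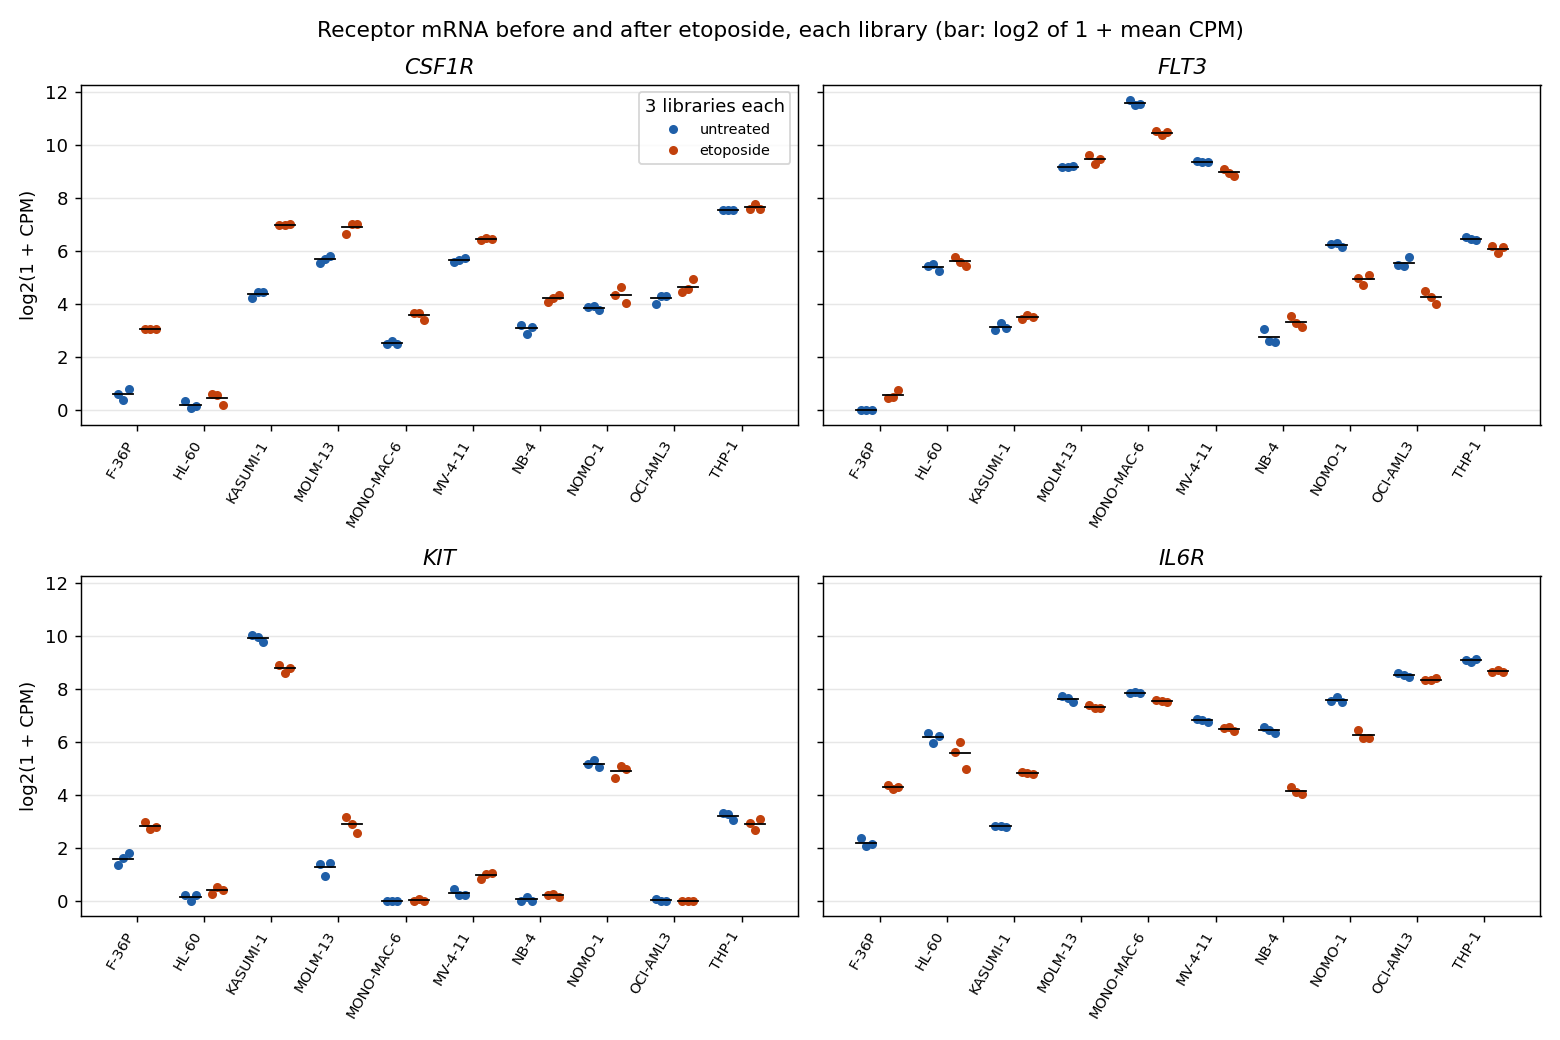
CSF1R, FLT3, KIT and IL6R as log2(1 + CPM) on the vertical axis in the 10 cell lines on the horizontal axis, with a point for each of the 3 untreated (blue) and 3 etoposide (orange) libraries and bars at the means. CSF1R lies higher after etoposide in 5 called cell lines, FLT3 lies lower in MONO-MAC-6, NOMO-1 and OCI-AML3, and IL6R lies higher in F-36P and KASUMI-1 and lower in the other 8.

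IL6R rose in the 2 cell lines where it was lowest and fell in 2, NB-4 and NOMO-1. In F-36P it went from 4.16, 3.18 and 3.39 to 19.7, 17.7 and 18.6 CPM, 5.20-fold (2.38 ± 0.16, adjusted p = 2.53e-06). In KASUMI-1 it went from 6.09, 6.04 and 5.86 to 28.0, 27.2 and 26.4 CPM, 4.54-fold (2.18 ± 0.10, adjusted p = 3.25e-07). In NB-4 it went from 94.0, 85.3 and 79.2 to 18.3, 16.2 and 15.3 CPM, 5.19-fold lower (-2.38 ± 0.11, adjusted p = 4.23e-10), and in NOMO-1 from 186, 205 and 182 to 84.7, 69.0 and 69.8 (-1.36 ± 0.10, adjusted p = 7.22e-07).

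Changes of IL6R in the remaining 6 cell lines ran from -0.61 in HL-60, where libraries overlapped, to -0.18 in OCI-AML3, each negative with an FDR below 0.05 and under the fold limit. Over the 10 cell lines the mean change of IL6R was -0.14 ± 1.44 (SD, n = 10), and the exact sign-flip permutation test over cell lines gave an adjusted p of 0.816. The differences between cell lines were 2.81 ± 0.16 in F-36P, 2.596 ± 0.15 in KASUMI-1, -2.47 ± 0.13 in NB-4 and -1.42 ± 0.12 in NOMO-1, all called.

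Like CSF1R, which was positive in all 9 cell lines where it was tested, CSF2RB changed in 1 direction: its log2 fold change was positive in 10 of 10. The CSF2RB value in F-36P (0.08 ± 0.11, adjusted p = 0.546) turned to -0.03 without the low-count filter. It was -0.02 without replicate 3 of either condition. The mean over cell lines was 0.66 ± 0.52 (SD, n = 10, two-sided exact sign-flip permutation test, p = 0.00195, the smallest that the sign flips allow, adjusted p = 0.00991 over 10588 genes), where 17.6% of these genes were called higher and 25.7% lower. KASUMI-1 passed the fold limit, from 7.46, 7.61 and 8.10 to 31.3, 28.7 and 30.6 CPM (1.97 ± 0.10, adjusted p = 5.74e-07). Its change exceeded the mean of the others by 1.48 ± 0.10. The next values were 0.87 in MOLM-13 and NB-4, and 0.64 in NOMO-1, where CSF2RB went from 70.3 ± 4.83 to 110 ± 9.81 CPM.

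CSF3R rose in F-36P, from 45.02, 42.4 and 47.5 to 141, 156 and 154 CPM (1.74 ± 0.11, adjusted p = 2.50e-06), and in MV-4-11, from 55.0, 59.4 and 53.2 to 132, 147 and 134 CPM (1.30 ± 0.06, adjusted p = 3.20e-13). These are the cell lines in which it had been lowest. MOLM-13 (0.90 ± 0.08) and OCI-AML3 (0.61 ± 0.08) were higher by the FDR alone and NOMO-1 was lower (-0.30 ± 0.09). HL-60, MONO-MAC-6, NB-4 and THP-1 had overlapping libraries. Replicate numbers paired the libraries in NB-4 and, less clearly, in MONO-MAC-6, where not every library correlated best with its own number. With the replicate block CSF3R passed the FDR in both, at -0.20 (adjusted p = 0.0243, against 0.198 without the block) and 0.08 (adjusted p = 0.0425, against 0.321), far under the fold limit. KASUMI-1, with 781 ± 15.3 CPM before and 876 ± 36.03 after, had an adjusted p of 0.0657. The mean change was 0.42 ± 0.69 (SD, n = 10, exact sign-flip permutation test, adjusted p = 0.16), and only the change in F-36P was called different from the other cell lines (1.48 ± 0.12).

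IFNGR1 was called in none of the 10 cell lines at a fold above 2, and by the FDR alone it was higher in 5, the same 5 that had an unadjusted p below 0.05, and lower in none. DESeq2 likewise called it in no cell line. The largest change was in THP-1, from 148, 172 and 152 to 282, 181 and 290 CPM (0.67 ± 0.15, adjusted p = 0.00281), where the etoposide library of replicate 2 lay close to the untreated ones. The log2 fold change was positive in 9 of 10 cell lines, of which NB-4 (0.01 ± 0.11) turned negative under DESeq2's scaling, and the mean was 0.26 ± 0.21 (SD, n = 10, exact sign-flip permutation test, p = 0.00586, adjusted p = 0.0192). HL-60 had 55.1 ± 4.52 CPM before and 54.6 ± 3.77 after (-0.02 ± 0.10).

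By cell line, each count stands beside the share of all genes tested in that cell line. In F-36P, 4 of 6 tested receptors rose (CSF1R, IL6R, CSF3R and KIT) and none fell, where 24.3% of genes rose and 6.67% fell. In KASUMI-1, CSF1R, IL6R and CSF2RB rose and KIT fell (14.6% and 6.52% of genes). CSF1R and KIT rose in MOLM-13 (8.59% of genes rose, 3.37% fell), and CSF3R and KIT rose in MV-4-11 (12.5% and 2.63%). MONO-MAC-6 had CSF1R up and FLT3 down (8.53% and 4.47%), and NB-4 had CSF1R up and IL6R down (13.2% and 4.82%). NOMO-1, with FLT3 and IL6R (8.34% and 4.43%), and OCI-AML3, with FLT3 (7.18% and 1.36%), only had receptors that fell. The shares of genes were 5.34% and 1.24% in HL-60 and 6.38% and 3.46% in THP-1. In HL-60 and THP-1 no receptor was called by either edgeR or DESeq2. At an unadjusted p below 0.05 in edgeR there were 2 of 5 and 5 of 7. The share of all genes at that limit was not counted, so these counts have nothing to be read against. In OCI-AML2, where 0.0% of genes were called in either direction, the 7 log2 fold changes lay between -0.05 and 0.07, with 0 called by either tool and 0 at an unadjusted p below 0.05.

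After etoposide another receptor led per kilobase, apart from the earlier leader in both conditions, in THP-1 and OCI-AML3. In THP-1 the IFNGR1 libraries went from 71.5 to 83.0 CPM per kb before to 87.2 to 140 after, and those of IL6R, which had all lain above IFNGR1 before, to 68.8 to 71.4. In OCI-AML3 CSF3R went from 46.6 to 54.5 before to 73.5 to 84.2 CPM per kb after, above IL6R at 54.9 to 57.7. In F-36P, IFNGR1 and CSF2RB overlapped each other both before and after. CSF3R, in place 3 before at 14.1 CPM per kb, ranked between them after etoposide.

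The partner chains of the receptors could be followed only in part. CSF2RA and IL3RA, which pair with CSF2RB, lie in the pseudoautosomal region shared by the X and Y chromosomes and are listed at 0 in all 66 libraries, so their level cannot be read from these counts. IL6ST, the signalling partner of IL6R, was called higher in MONO-MAC-6 alone, from 17.4 to 46.9 CPM (1.43 ± 0.11), while IL6R there had a log2 fold change of -0.31. IFNGR2 was called in no cell line by edgeR, with log2 fold changes between -0.36 and 0.78.

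Genes of the ligands were mostly near or below detection. Of 12 ligand genes, 5 passed the filter in at least 1 cell line, giving 19 pairs, of which 16 rose and none fell (84.2%, beside 11.1% of all pairs that rose), and 8 of these 16 had passed the filter only through the etoposide libraries, which limits what the count can show. CSF1, the ligand of CSF1R, rose in 8 of 8 tested cell lines, by 1.06 in OCI-AML3 to 3.50 in KASUMI-1 (log2), and reached 40.4 CPM from 12.4 in MONO-MAC-6. KITLG (stem cell factor) rose in 6 of 8, among them MOLM-13 (0.768 to 4.44 CPM, 2.52 ± 0.30) and MV-4-11 (0.758 to 3.41 CPM, 2.17 ± 0.23), where KIT rose too, and KASUMI-1 (1.38 to 5.84 CPM, 2.07 ± 0.19), where KIT fell. THP-1 had the most KITLG (23.4 CPM) and no call (-0.05 ± 0.16), as in HL-60 (0.48, adjusted p = 0.151). CSF2 (GM-CSF) rose in F-36P from 0.0185 to 0.744 CPM and IL6 rose in MONO-MAC-6 from 0.433 to 1.501 CPM. Both were too low before treatment to pass the filter, as was CSF1 in KASUMI-1 (0.124 CPM) and F-36P (0.339 CPM). The same held for KITLG in F-36P (0.394 CPM) and MONO-MAC-6 (0.1825 CPM), so only a rise could be called in these pairs. FLT3LG stayed at or under 0.384 CPM in both conditions of the 10 cell lines.

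Over 17 other receptors, 30 of 126 tested pairs rose and 5 fell (23.8% and 3.97%, beside 11.1% and 3.96% of all pairs). Of these 30, 13 had passed the filter only through the etoposide libraries, which limits this count as well. IL10RA, a chain of the interleukin 10 receptor, rose in 7 of 10 cell lines, among them KASUMI-1 (0.49 to 8.62 CPM) and NOMO-1 (10.2 to 36.2 CPM). IL7R rose in 6 of 8, with 42.1 to 169 CPM in MOLM-13 (2.004 ± 0.09). PDGFRB, a receptor tyrosine kinase of the same class as KIT and CSF1R, rose in 5 of 8, from 0.169 to 2.98 CPM in F-36P. PDGFRB in F-36P and IL10RA in KASUMI-1 were too low before treatment to pass the filter, so only a rise could be called there. LEPR, the leptin receptor, fell in 4 of 10, from 291 to 125 CPM in F-36P (-1.22 ± 0.20).

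Of signal transducers, 10 of 148 pairs rose and 4 fell, and these shares of 6.76% and 2.70% were below the 11.1% and 3.96% of all pairs. Of the 10, 7 were JAK3, the Janus kinase that works with the common gamma chain, which went from 12.2 to 48.8 CPM in MONO-MAC-6. Of the same 10, 2 had passed the low-count filter only through the etoposide libraries, which limits this count. STAT5A fell in F-36P from 412 to 202 CPM (-1.03 ± 0.11), as did the adaptor GAB2, from 125 to 48.2 CPM, whereas GAB2 rose in HL-60 and THP-1.

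Among inhibitors and shedding enzymes 16 of 128 pairs rose and 1 fell. The share that rose, 12.5%, was near the 11.1% of all pairs, and 0.781% fell, beside 3.96% of all. Of these 16, 4 had passed the low-count filter only through the etoposide libraries, which limits this count. SOCS3, the feedback inhibitor of IL6ST and CSF3R signalling, rose in 7 of 10 cell lines, from 5.01 to 20.2 CPM in MONO-MAC-6 (2.01 ± 0.11) and from 0.548 to 4.55 CPM in NB-4. In NB-4 it passed the low-count filter only through the etoposide libraries. SOCS1, an inhibitor of interferon signalling, rose in 5 of 9. DUSP6, a phosphatase for ERK, rose in F-36P and OCI-AML3, and SOCS2 fell in OCI-AML3 (6.27 to 2.56 CPM).

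Of the target genes 16 of 85 pairs rose and 8 fell (18.8% and 9.41%, beside 11.1% and 3.96% of all pairs). Of these 16, 2 had passed the low-count filter only through the etoposide libraries. MYC fell in 6 of 10 cell lines, from 844 to 62.5 CPM in F-36P (-3.75 ± 0.15) and from 933 to 203 in KASUMI-1, and was negative in the other 4. BCL6, a transcriptional repressor, rose in 6 of 10 and ID1 in 5 of 8. PIM1, a kinase gene induced by STAT5, rose in HL-60 and NB-4 and fell in F-36P from 620 to 286 CPM (-1.12 ± 0.11).

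Of transcription factors known to act on receptor genes, 7 of 79 pairs rose and 4 fell, shares of 8.86% and 5.06% that were near the 11.1% and 3.96% of all pairs. Of these 7, 2 had passed the low-count filter only through the etoposide libraries. CEBPB was positive in all 10 cell lines and rose in 5, with 13.2 to 44.2 CPM in THP-1 (1.75 ± 0.17). MYB fell in F-36P, MONO-MAC-6 (722 to 265 CPM, -1.44 ± 0.05) and NB-4. RUNX1 fell in KASUMI-1 from 441 to 135 CPM (-1.71 ± 0.08). CEBPA rose in F-36P from 0.587 to 3.10 CPM, where it passed the filter only through the etoposide libraries. Over all 6 lists of 75 genes, 95 of 585 pairs rose and 22 fell (16.2% and 3.76%, beside 11.1% and 3.96% of all pairs), and 31 of the 95 had passed the filter only through the etoposide libraries. Without F-36P, 76 of 522 rose and 13 fell (14.6% and 2.49%, beside 9.41% and 3.62%).

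**Figure D4:**
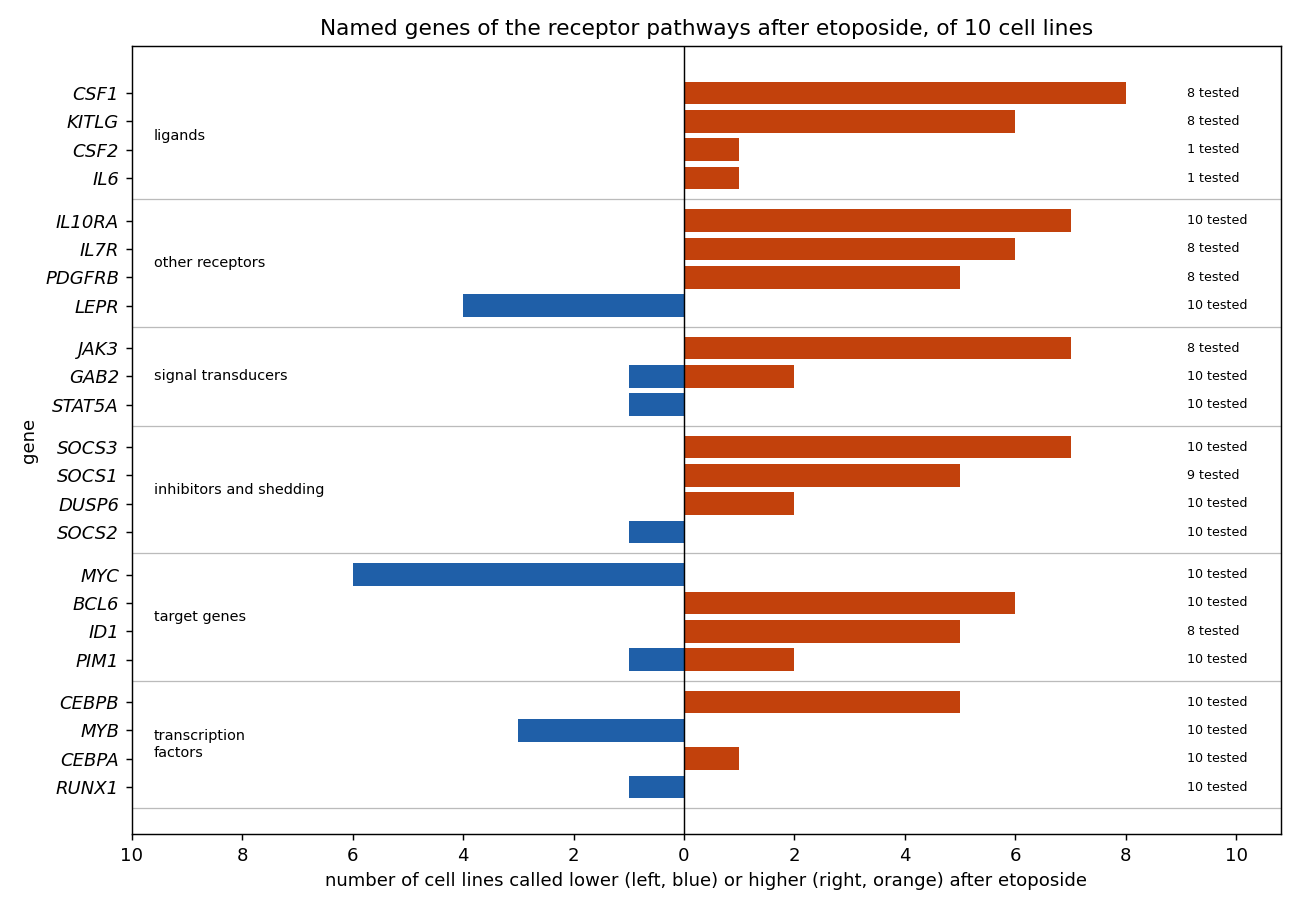
Number of the 10 cell lines in which each named pathway gene was called lower (left of 0, blue) or higher (right of 0, orange) after etoposide, with the number of cell lines tested at the right edge and the 6 lists in blocks. CSF1 (8 of 8), IL10RA, JAK3 and SOCS3 (7 each) have the most higher calls and MYC (6 of 10) the most lower ones.

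Identity markers moved in the same libraries. Of the leukocyte and myeloid markers, LYZ rose in 5 of 10 cell lines, MPO fell in 5, and PTPRC was called once in each direction, and SPI1 and CD33 were called in none by edgeR. Of the erythroid markers, HBG1 fell in F-36P and EPOR rose in 1 cell line. Markers of other cell types rose in 16 of 36 tested pairs and fell in 1 (44.4% and 2.78%, beside 11.1% and 3.96% of all pairs), 7 of the 16 being COL1A1, and 8 of the 16 had passed the filter only through the etoposide libraries. Their summed level over 8 genes ranged from 1.15 to 304 CPM in untreated and from 3.07 to 372 CPM in etoposide-treated cell lines and was higher after treatment in 9 of 10, with 7 of the 8 genes at 0 reads in 1 or more untreated cell lines. Without PECAM1 the median sum was 2.29 CPM before and 8.28 after, against 91.0 and 137 with it, and the sum was higher after treatment in 10 of 10. Mitochondrial transcripts took a median of 5.07% of reads before and 5.98% after. The part of these shifts in the receptor changes was not tested.

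Untreated levels of the receptors were also set beside those of 13666 other genes over the 11 cell lines. The correlations of log2(1 + CPM) describe 11 points that share library preparation and are given without a test. KIT was most like ST3GAL5 (r = 0.98), LRATD2 (0.97) and GPA33 (0.95), and IL6R like SPAG1, PRKCD and CDIPT (0.96 each). FLT3 was most like SCAT1 (0.94), SLC35B3 (0.92) and CLASP2 (0.90). CSF1R was most like FCGR1A, CYBA and CCDC96 (0.93, 0.92 and 0.92), CSF2RB like MAPRE3 (0.93), APOL2 (0.91) and KIAA0040 (0.90), IFNGR1 like FAM172A (0.91), TRPM4 (0.90) and LINC00477 (0.89), and CSF3R like IL9RP3 (0.90), ADGRD1 (0.88) and NCKAP1L (0.87). FCGR1A and IL9RP3 have near-identical copies between which reads can be split. Among the receptors themselves, r was highest for KIT with CSF3R (0.74), both of which peak in KASUMI-1, and for FLT3 with IL6R (0.67), and it was lowest for KIT with IL6R (-0.41).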

How the data were processed

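RNA was measured in 66 libraries of 11 AML cell lines. According to the labels and the methods, the authors checked reads with FastQC 0.11.5, mapped them with STAR 2.5.3a (genome GRCh38.p7, annotation gencode 25) and deposited raw counts of reads per gene, without normalization. The count column kept is not given in the sources used here. Of 375 genes nested in an exon on the opposite strand, 307 hold reads. STAR leaves such reads uncounted as ambiguous in its unstranded column, so a stranded column is likely, but no source states it. The authors called genes with edgeR 3.20.1. STAR's gene counts leave out reads that map to several places.

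From the deposited counts, 57992 identifiers were analysed after 45 pseudoautosomal copies with 0 reads were left out, and 56948 were named by gencode release 44. Each cell line was fitted with edgeR 4.0.16 in R 4.3.3 (filterByExpr with a minimum count of 10 and total of 15, TMM, quasi-likelihood test, Benjamini-Hochberg adjustment over all genes tested). Calls needed an FDR below 0.05 and a fold above 2. SE is the absolute log2 fold change over the square root of F. Untreated levels came from a fit of 33 libraries, and differences of the change from a fit of 60. Since FLT3 and KIT have cell lines without reads, their untreated levels were not tested, and their differences were fitted over the 9 and 6 cell lines where they were tested, a choice made after seeing the data. Means over cell lines were tested by exact sign-flip permutation of 10 values, two-sided. Levels per kilobase used the canonical transcript of release 44. DESeq2 1.42.0, RLE or library-size scaling, no low-count filter, a replicate block, omitted replicates or F-36P, and a joint fit were the alternatives. The steps were tested on simulated data. Python 3.11.15 with pandas 2.3.3, scipy 1.17.1 and matplotlib 3.10.9 made the summaries.

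Sequences were taken from RefSeq. The 7 receptors, the gene lists and the tests were chosen with earlier results of these data known. Named genes were the receptors, up to 4 genes per list called in the most cell lines, the markers, the 3 genes most like each receptor, and the receptors' partner chains and ligands, which were added after their values were seen. Some genes that this rule names are not reported here. The series describes its 3 samples per group as biological replicates, and p-values measure the spread between them. The lowest chi-square per degree of freedom between replicates was 2.12, above sampling noise. No batch was named in the labels. Reads are not independent molecules, so the limits for counts of 0 and the counting interval cover counting error only. Replicate numbers paired the libraries in 4 cell lines (OCI-AML2, NB-4, MONO-MAC-6, MOLM-13), where deviations from the group means correlated above 0.1 in every pair (lowest 0.14). The lowest was in MONO-MAC-6, where not every library correlated best with its own number.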

Additional observations from a re-analysis of the deposited data

Results flagged for a closer look

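The change after etoposide differed between cell lines for 6 of the 7 receptors by the test of the difference itself. The difference is the change in a cell line minus the mean change in the other cell lines (log2). The share of all genes with any such call was not counted, so the count of 6 has nothing to be read against. For CSF1R the differences were 2.79 in F-36P, 1.48 in KASUMI-1, -1.02 in OCI-AML3 and -1.36 in THP-1. The OCI-AML3 value of CSF1R was under the fold limit without F-36P (-0.73) and without replicate 2 (-0.78). For IL6R they were 2.81 in F-36P, 2.596 in KASUMI-1, -2.47 in NB-4 and -1.42 in NOMO-1. CSF2RB stood apart in KASUMI-1 (1.48) and CSF3R in F-36P (1.48). FLT3, over 9 cell lines, stood apart in NB-4 (1.12), NOMO-1 (-1.18) and OCI-AML3 (-1.18, or -0.92 without replicate 3, under the fold limit). KIT, over 6 cell lines, did so in all of them: MOLM-13 (1.82), MV-4-11 (1.60), F-36P (1.14), THP-1 (-1.19), NOMO-1 (-1.20) and KASUMI-1 (-2.18). The MV-4-11 value was lost without replicate 2 or 3 (adjusted p = 0.112 and 0.117), the F-36P value was 0.77 without replicate 1, and NOMO-1 (-0.92) and THP-1 (-0.90) were under the fold limit without MV-4-11. KIT in MV-4-11 and CSF1R in F-36P had passed the low-count filter only through their etoposide libraries. IFNGR1 had no such call. F-36P and KASUMI-1 carry 8 of these 19 differences. They also had the largest shares of all tested genes that rose after etoposide (24.3% and 14.6%) and the highest doses. The part of dose was not tested.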

How the results depend on the processing

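The counts of receptors that rose (13) or fell (6) after etoposide stayed at 13 or 14 and at 5 or 6 under RLE or library-size scaling, no low-count filter, DESeq2 and the joint fit, were 13 to 13 and 6 to 6 with a replicate left out, and went to 34 and 15 without the fold minimum. For the pathway lists, 95 and 22 calls became 262 and 114 without the fold minimum, and the lower calls dropped to 13 without F-36P, an alternative chosen after seeing the data. Of 768 single changes recomputed, 755 kept direction and call. KIT in KASUMI-1 lost its call with library size alone (-0.98), CSF2RB in NB-4 gained one (1.08), and 11 values close to 0 reversed. These were CSF2RB in F-36P without the low-count filter (-0.02941) and with a replicate left out (-0.02032 without untreated replicate 3, range -0.02032 to 0.1315), IFNGR1 in HL-60 with library size alone (0.08797), in the joint fit (0.01549) and with a replicate left out (range -0.05146 to 0.06527), and IFNGR1 in NB-4 with RLE scaling (-0.005438), with DESeq2 (-0.005428) and with a replicate left out (range -0.0903 to 0.08258). The cause of these reversals was not tested. Library size alone moved the median of all genes by up to 0.24 (F-36P) and the share of higher calls from 73.7% to 81.6%. With the replicate block the receptor counts were again 13 and 6, and no call at a fold above 2 on a receptor changed. Depth limits KIT and CSF1R where untreated cells held under 30 reads.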
